A study of Mus musculus with 6 samples.

Results

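Glutathione, the tripeptide thiol that serves as the main soluble antioxidant of mammalian cells, was followed through 10 mouse genes for its synthesis, recycling, export and breakdown: Gclc, Gclm, Gss, Gsr, Slc7a11, Chac1, Chac2, Abcc1, Oplah and Glrx. The genes were listed by name and matched to Entrez identifiers, and all 10, of 17254 genes listed in any library, were found in each of the 6 libraries. RNA was sequenced from cultures of mouse neural stem and progenitor cells grown in N2 medium with EGF and bFGF. The groups were PQ-treated cultures, NAC-treated cultures and control cultures, with 2 libraries each and a treatment time of 48 h, and the stated aim was to set different intracellular redox potentials. The labels spell out neither PQ nor NAC, give no dose and name no genotype, strain or age. They also leave unsaid whether the pair of libraries in each group came from different cultures, so the p-values rest on a spread between libraries that may be only technical. Libraries are called replicate 1 and replicate 2 in the order of the samples, which pairs nothing across groups.

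Glutathione is built in 2 steps. Cystine enters the cell through the exchanger xCT, encoded by Slc7a11, and is reduced to cysteine. Glutamate cysteine ligase, made of the catalytic subunit Gclc and the modifier subunit Gclm, joins cysteine to glutamate and sets the pace of synthesis, and glutathione synthetase (Gss) adds glycine. Glutathione reductase (Gsr) returns the oxidised form to the thiol form with NADPH, and glutaredoxin 1 (Glrx) removes glutathione from protein thiols. The membrane pump Abcc1 exports oxidised glutathione and glutathione conjugates. Inside the cell Chac1 and Chac2 cleave glutathione to 5-oxoproline and cysteinylglycine, and Oplah, the 5-oxoprolinase, turns 5-oxoproline back into glutamate. The transcription factor NRF2, which responds to electrophiles and oxidants, is known to induce Gclc, Gclm, Gsr, Slc7a11 and Abcc1, and ATF4, the factor of the amino acid response, is known to induce Chac1 and Slc7a11.

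The main pattern was less Chac1 mRNA with both agents and a lower level of Gclc, Abcc1 and Chac2 with NAC. With PQ, Chac1 fell to 7.49 ± 0.43 CPM, against 43.6 ± 15.8 CPM in control (mean ± SD, n = 2 each), a 5.8-fold decrease. With NAC it fell to 3.70 ± 0.51 CPM, an 11.8-fold decrease from the same control libraries. CPM (counts per library, scaled to the same library size in all with TMM factors) compares a gene between libraries but not between genes. Gclc, Gclm, Abcc1, Chac1 and Chac2 were all higher with PQ than with NAC. Slc7a11, the most abundant of the 10, differed by at most 1.18-fold in any comparison.

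**Figure D1:**
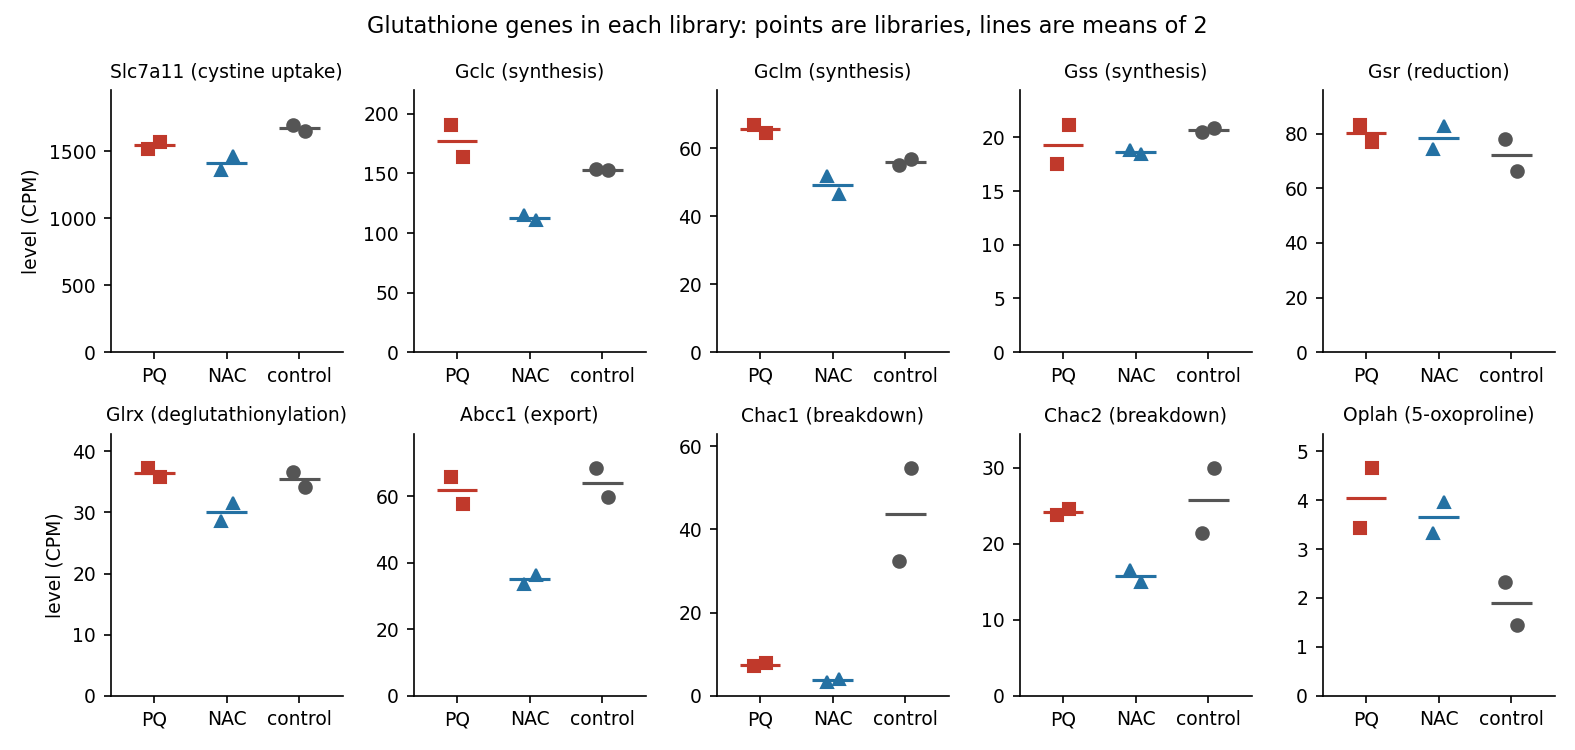
Level of each of the 10 glutathione genes in CPM (vertical axes, linear from 0) in PQ, NAC and control libraries, with 1 point per library and a line at the mean of 2. Chac1 lies between 3.34 and 7.79 CPM in the 4 treated libraries and at 32.4 and 54.8 CPM in the 2 control libraries, and Abcc1 is lower in both NAC libraries than in any other.

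All 10 genes passed the filter on low counts and were tested among 12813 genes with edgeR's quasi-likelihood test, and called means an adjusted p (Benjamini-Hochberg over all 12813) under 0.05. In PQ against control 1 of the 10 was called higher, Oplah, where 9.07% of all genes were called higher, and 1 was called lower, Chac1, where 8.8% of all genes were. In NAC against control 4 of the 10 were called lower, Gclc, Chac1, Chac2 and Abcc1, against 9.26% of all genes. The number called higher was 0 in edgeR and in DESeq2, against 8.65% of all genes, and 1 gene, Oplah, had an unadjusted p under 0.05. In PQ against NAC 5 of the 10 were called higher, Gclc, Gclm, Chac1, Chac2 and Abcc1, against 15.5% of all genes. Lower in PQ than in NAC were 0 of the 10 in edgeR and in DESeq2, with 0 at an unadjusted p under 0.05, against 15.1% of all genes. Scaling by library size alone changed the split of all genes in NAC against control to 1392 higher and 986 lower, from 1108 and 1186, and added Oplah to the genes called higher.

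The median log2 fold change of the 10 genes was -0.01 for PQ relative to control, -0.24 for NAC relative to control and 0.35 for PQ relative to NAC. Over all genes tested the medians were -0.002, -0.002 and 0.001. Without any test, both NAC libraries were below both control libraries in 8 of the 10 genes and in 28.3% of all genes, and both PQ libraries were above both NAC libraries in 7 of the 10 and in 33.1% of all genes. The comparisons of PQ and of NAC with control use the same 2 control libraries, so a control value that is high or low enters both.

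**Figure D2:**
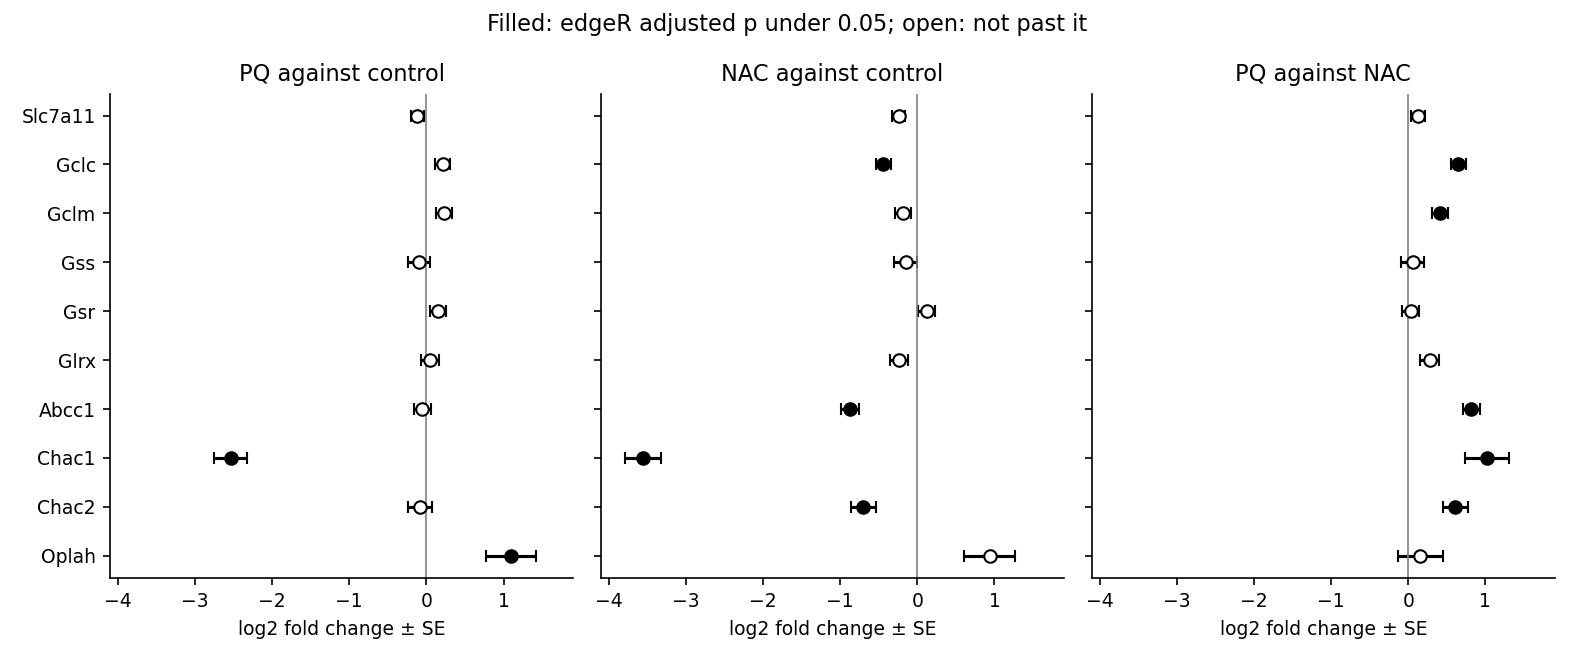
Log2 fold change (horizontal axes) of the 10 genes for PQ and for NAC relative to control and for PQ relative to NAC, with bars of 1 approximate standard error from edgeR and filled points where the adjusted p was under 0.05. Chac1 stands farthest from 0 in both comparisons with control (-2.54 and -3.56), and all 10 estimates of PQ against NAC are positive, from 0.03 to 1.02.

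Summed counts were 9680436 to 10698241 per library. The labelled cell type was checked on its markers. Of the neural stem and progenitor markers, Sox2, Nes, Vim, Fabp7, Slc1a3, Pax6 and Msi1 were above 20 CPM in every library, and Hes5 and Prom1 were at 0 to 0.416 CPM. Vim, the most abundant of them, had 4594 and 4871 CPM with PQ, 2467 and 2489 CPM with NAC and 4058 and 4306 CPM in control. Other markers of this list went different ways against control. Sox2 fell with PQ and with NAC (log2 fold change -0.36 and -0.31, edgeR adjusted p = 0.014 and 0.028). Nes rose with PQ and fell with NAC (0.34 and -0.28, edgeR adjusted p = 0.01 and 0.031). Slc1a3 fell with PQ and rose with NAC, as given below, and Fabp7, Pax6 and Msi1 were not called. The 5 astrocyte markers (Gfap, Aqp4, Aldh1l1, S100b and Slc1a2) summed to 66.1 and 68.4 CPM with PQ, 94.6 and 96.6 CPM with NAC and 53.4 and 57.5 CPM in control, and none was at 0. Slc1a2 made up most of that sum, and the members differed. Gfap, Aqp4 and Slc1a2 rose with NAC against control (2.34-, 3.38- and 1.57-fold, edgeR adjusted p at most 0.00034), while Aldh1l1 rose with PQ (2.25-fold, edgeR adjusted p = 0.0039) and was 3.15-fold higher with PQ than with NAC. The 6 neuronal markers, mostly Map2, summed to 183 and 194 CPM with PQ, 320 and 360 CPM with NAC and 198 and 209 CPM in control, with Rbfox3 at 0 throughout and Dcx and Stmn2 at no more than 0.808 CPM. Tubb3, another of them, went the other way at 0.556 to 1.24 CPM in treated libraries and 2.32 and 4.26 CPM in control, and fell with PQ and with NAC (-1.65 and -2.27, edgeR adjusted p = 0.011 and 0.0017), and Syt1 was -1.32 with NAC (0.15). The 6 oligodendrocyte lineage markers, mostly Olig1, summed to 919 and 1024 CPM with PQ, 1064 and 1280 CPM with NAC and 781 and 988 CPM in control, with Mog at 0. Lists for microglia and blood, endothelium, and fibroblasts and pericytes summed to at most 6.35, 1.98 and 6.75 CPM. Some of these levels move with the NAC results below, and their part in those results was not tested. In these bulk samples fewer cells of a type and less RNA per cell cannot be told apart.

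Levels of different genes were compared in FPKM, which is per length. Slc7a11 had 161 and 170 FPKM with PQ, 147 and 160 FPKM with NAC and 172 and 179 FPKM in control. That placed it at the 96.9, 96.8 and 97.2 percentile of the tested genes by group mean. Gclc came next in each group, and Oplah was the lowest in each, at 0.36 to 1.18 FPKM. By mean FPKM the order with PQ was Slc7a11, Gclc, Gclm, Gsr, Glrx, Chac2, Gss, Abcc1, Chac1 and Oplah. With NAC it differed in Gsr standing above Gclm, and in control Chac1 stood in place 3, followed by Gclm, Glrx and Gsr. That place rests on the mean of 20.4 and 34.0 FPKM. Chac1 was below Gclm, Glrx and Gsr in control replicate 1 and above them in control replicate 2. By group mean Chac1 moved most, to the 29.3 percentile with PQ and the 18.2 percentile with NAC, against the 75.3 percentile in control. Gclm, Gsr and Glrx were neighbours whose ranges over all libraries overlapped (22.9 to 32.1, 24 to 31.3 and 21.9 to 28 FPKM), and Gss and Abcc1 overlapped with PQ and in control, while in NAC Gss (10.2 and 10.3 FPKM) was above Abcc1 (5.64 and 6.16 FPKM).

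**Figure D3:**
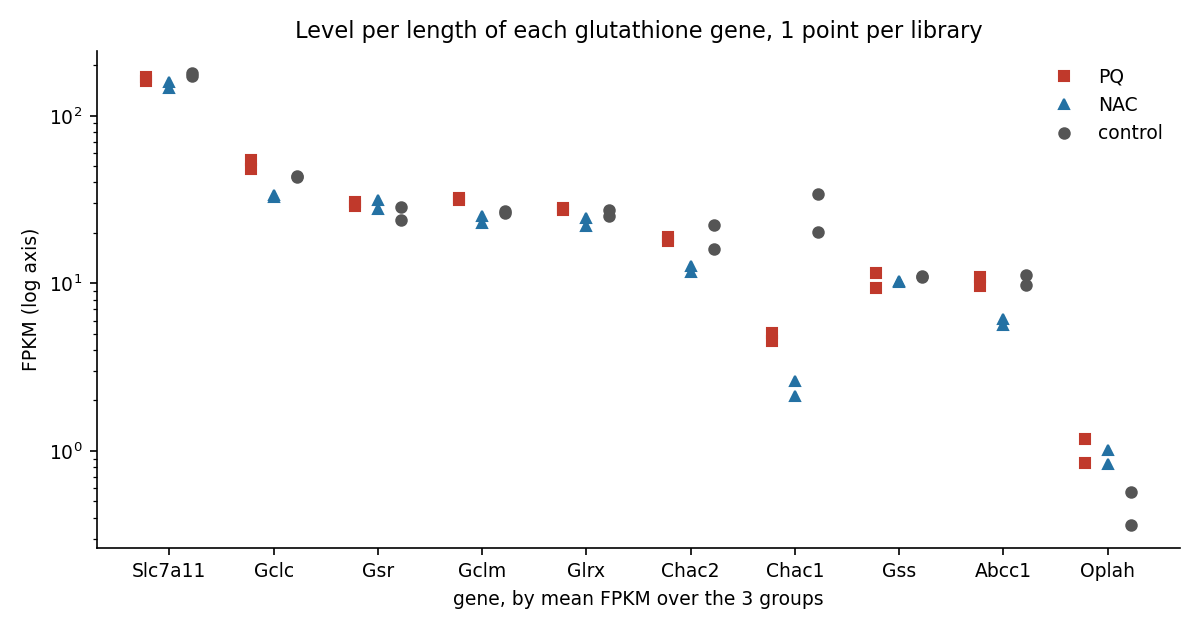
Level per length (FPKM, log axis) of the 10 genes in every library, ordered by mean FPKM over the 3 groups, with squares for PQ, triangles for NAC and circles for control. Slc7a11 lies at 146.9 FPKM or more throughout, and Chac1 drops to at most 5.02 FPKM in treated libraries.

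Cystine uptake changed little at the level of Slc7a11 mRNA. The gene (Entrez 26570, chr3:50364936-50499087 of GRCm38) had 1517 and 1568 CPM with PQ, 1360 and 1465 CPM with NAC and 1646 and 1697 CPM in control. The control libraries were the highest 2 of the 6 and the NAC libraries the lowest 2. The log2 fold change of PQ against control was -0.12 ± 0.09 (SE, edgeR adjusted p = 0.4), with a 95% interval of -0.30 to 0.07. For NAC against control it was -0.24 ± 0.09 (edgeR adjusted p = 0.059), with an interval of -0.42 to -0.06, and DESeq2 and edgeR without a filter on low counts called it (adjusted p = 0.034 and 0.035). PQ against NAC gave 0.13 ± 0.09 (edgeR adjusted p = 0.29), with an interval of -0.05 to 0.31.

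Slc3a2, the heavy chain that carries xCT to the membrane and also serves other amino acid transporters, moved differently and was chosen for mention after its values were seen. It had 177 and 184 CPM with PQ, 164 and 193 CPM with NAC and 285 and 440 CPM in control. The treated libraries did not overlap with control, and control replicate 2 was the highest. Slc3a2 fell with PQ by 1.01 and with NAC by 1.02 on the log2 scale (edgeR adjusted p = 0.00012 and 5.4e-05), and by 0.66 and 0.67 without control replicate 2. In FPKM, Slc7a11 was 2.36 and 2.38 times Slc3a2 with PQ, 2.10 and 2.29 times with NAC and 1.03 and 1.65 times in control.

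Promoter windows of Slc7a11 and Chac1 both hold letters that match the composite element that C/EBP and ATF factors bind as a pair, here spelled TGATGNAA. The search covered both strands of the 300 base windows that RefSeq gives for GRCm38.p6 (250 bases before an annotated transcript start and 50 after). Of 32851 such windows 3.97% hold a match. The antioxidant response element core that NRF2 binds with small Maf proteins, TGACNNNGC, was searched in the same way and is in 12.4% of windows. The start used for Chac1 is the 5′ end of the gene, whose span is given below. That for Gclm lies 70 bases inside the gene span, and that for Slc7a11, at 50443613, lies 55474 bases inside the span given above, 1 base from a protein-coding transcript start in GENCODE M21. Positions below count from these transcript starts. Windows were found for 6 of the 10 genes, and none of them held both patterns: Slc7a11, Chac1, Gclm, Gss, Chac2 and Glrx. The 3 windows with a match to either pattern are shown, with the matches in capitals, reading 5′ to 3′ on the gene's strand.
Chac1, chr2:119350992-119351291, plus strand: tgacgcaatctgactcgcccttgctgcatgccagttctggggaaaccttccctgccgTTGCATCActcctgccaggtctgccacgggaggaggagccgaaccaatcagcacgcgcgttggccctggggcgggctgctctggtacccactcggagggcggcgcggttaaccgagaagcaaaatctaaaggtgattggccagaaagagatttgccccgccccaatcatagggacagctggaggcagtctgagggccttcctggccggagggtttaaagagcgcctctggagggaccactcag
Slc7a11, chr3:50443564-50443863, minus strand: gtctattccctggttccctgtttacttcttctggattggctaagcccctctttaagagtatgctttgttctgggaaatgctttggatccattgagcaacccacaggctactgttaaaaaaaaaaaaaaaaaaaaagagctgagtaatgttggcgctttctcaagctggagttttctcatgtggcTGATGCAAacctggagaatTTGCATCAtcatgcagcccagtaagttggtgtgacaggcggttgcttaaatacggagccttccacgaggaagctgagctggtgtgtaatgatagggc
Gclm, chr3:122245307-122245606, plus strand: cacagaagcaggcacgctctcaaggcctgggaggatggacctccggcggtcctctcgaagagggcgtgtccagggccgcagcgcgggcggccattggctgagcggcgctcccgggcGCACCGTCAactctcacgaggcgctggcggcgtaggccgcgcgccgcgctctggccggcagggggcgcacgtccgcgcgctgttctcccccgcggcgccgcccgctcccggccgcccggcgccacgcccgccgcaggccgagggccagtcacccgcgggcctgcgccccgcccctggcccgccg

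The Chac1 window holds the composite element once, beginning 193 bases before the transcript start, as TTGCATCA (TGATGCAA on the other strand). In the Slc7a11 window the same 8 letters stand 2 times, beginning 66 and 47 bases before that internal transcript start, once on each strand. The Gclm window holds the antioxidant response element core once, beginning 134 bases before its transcript start, as GCACCGTCA. A match describes these letters only and says nothing of binding. The Chac1 and Slc7a11 mRNAs, with the same letters in their windows, differed in size of change: PQ against control gave -2.54 ± 0.21 for Chac1 and -0.12 ± 0.09 for Slc7a11 (log2 fold change ± SE).

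The ligase genes were lower with NAC than with PQ. Gclc (Entrez 14629, chr9:77754535-77794489 of GRCm38) had 164 and 191 CPM with PQ, 111 and 115 CPM with NAC and 153 and 153 CPM in control. The PQ libraries lay above and the NAC libraries below the control libraries, without overlap. Gclc fell with NAC by 0.44 ± 0.10 against control on the log2 scale (edgeR adjusted p = 0.0042) and was 1.57-fold higher with PQ than with NAC (0.65 ± 0.10, edgeR adjusted p = 7.1e-05). Both calls held without any 1 library. Against control the PQ value was 0.21 ± 0.10 (edgeR adjusted p = 0.15), with a 95% interval of 0.004 to 0.42.

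Gclm (Entrez 14630, chr3:122245487-122267215 of GRCm38) had 64.4 and 66.9 CPM with PQ, 46.4 and 51.9 CPM with NAC and 55.2 and 56.8 CPM in control. Its 3 groups did not overlap and kept the order of Gclc. It was 1.33-fold higher with PQ than with NAC (0.42 ± 0.10, edgeR adjusted p = 0.0052), a call that was lost without PQ replicate 1 (adjusted p = 0.053) and without NAC replicate 2 (0.075). Against control, PQ gave 0.23 ± 0.10 (edgeR adjusted p = 0.14) and NAC gave -0.19 ± 0.10 (0.25). In FPKM, Gclc was 1.52 and 1.71 times Gclm with PQ, 1.33 and 1.43 times with NAC and 1.61 and 1.66 times in control. The counting did not state a strand, and 4.7% of the exonic bases of Gclm lie opposite another gene and 3.9% are shared with one on the same strand.

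Gss (Entrez 14854, chr2:155563181-155592810 of GRCm38) had 17.5 and 21.2 CPM with PQ, 18.4 and 18.8 CPM with NAC and 20.5 and 20.9 CPM in control. The PQ libraries spanned those of both other groups. Its log2 fold changes were -0.09 ± 0.15 for PQ and -0.15 ± 0.15 for NAC against control (edgeR adjusted p = 0.7 and 0.52), with 95% intervals of -0.40 to 0.21 and -0.46 to 0.15. PQ against NAC gave 0.06 ± 0.15 (edgeR adjusted p = 0.81). Genes on the opposite strand, Acss2 among them, share up to 6.7% of its exonic bases.

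The reductase and the glutaredoxin were not called in any comparison. Gsr (Entrez 14782, chr8:33653238-33698162 of GRCm38) had 77.2 and 83.4 CPM with PQ, 74.4 and 82.8 CPM with NAC and 66.3 and 78.1 CPM in control. All 3 groups overlapped. Its log2 fold changes were 0.15 ± 0.11 for PQ and 0.12 ± 0.11 for NAC against control (edgeR adjusted p = 0.37 and 0.49), with 95% intervals of -0.07 to 0.38 and -0.10 to 0.35. PQ against NAC gave 0.03 ± 0.11 (edgeR adjusted p = 0.86), an interval of -0.20 to 0.26.

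Glrx (Entrez 93692, chr13:75839885-75850151 of GRCm38) had 35.7 and 37.3 CPM with PQ, 28.6 and 31.6 CPM with NAC and 34.2 and 36.7 CPM in control. The NAC libraries were the lowest 2, and PQ and control overlapped. NAC against control gave -0.24 ± 0.12 and PQ against NAC 0.28 ± 0.12 on the log2 scale (edgeR adjusted p = 0.19 and 0.087), with 95% intervals of -0.49 to 0.02 and 0.03 to 0.53. PQ against control gave 0.04 ± 0.12 (edgeR adjusted p = 0.85).

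The mRNA of the export pump was lower in NAC cultures than in either other group. Abcc1 (Entrez 17250, chr16:14361453-14474878 of GRCm38) had 57.6 and 66 CPM with PQ, 33.6 and 36.3 CPM with NAC and 59.8 and 68.5 CPM in control. PQ and control overlapped, and both NAC libraries were far below. Abcc1 fell with NAC 1.84-fold against control (-0.88 ± 0.12, edgeR adjusted p = 2.8e-05) and was 1.77-fold higher with PQ than with NAC (0.82 ± 0.12, edgeR adjusted p = 3.2e-05). Both calls held without any 1 library. PQ against control gave -0.06 ± 0.11 (edgeR adjusted p = 0.78), with a 95% interval of -0.29 to 0.18.

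Of the 10 genes Chac1, which breaks glutathione down, changed most against control. Chac1 (Entrez 69065, chr2:119351242-119354326 of GRCm38) had 7.18 and 7.79 CPM with PQ, 3.34 and 4.06 CPM with NAC and 32.4 and 54.8 CPM in control, from 69 and 82, 36 and 41, and 321 and 527 rounded counts. No treated library came near a control library, and the 2 control libraries themselves differed. Its log2 fold change was -2.54 ± 0.21 in PQ against control and -3.56 ± 0.24 in NAC against control (edgeR adjusted p = 7.2e-07 and 2.1e-08). By size of change these were rank 21 and rank 13 of the 12813 genes. Without control replicate 2, the higher one, they were -2.11 and -3.13, and without control replicate 1 they were -2.87 and -3.88. With 1 control library left, the spread came from the PQ and NAC libraries only. Such a fit therefore cannot weigh the difference between the 2 control libraries.

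Chac1 was also 2.03-fold higher with PQ than with NAC (1.02 ± 0.29, edgeR adjusted p = 0.012), a call that was lost without PQ replicate 2 (adjusted p = 0.068) and without NAC replicate 1 (0.086). Chac2 (Entrez 68044, chr11:30976707-30986365 of GRCm38), a related enzyme with lower activity, had 23.7 and 24.5 CPM with PQ, 15 and 16.6 CPM with NAC and 21.4 and 29.9 CPM in control. The NAC libraries were the lowest 2, and the PQ libraries lay between the 2 control libraries. Chac2 fell with NAC 1.62-fold against control (-0.70 ± 0.16, edgeR adjusted p = 0.005), with -0.43 without control replicate 2 (adjusted p = 0.092) and -0.63 without NAC replicate 2 (0.051). It was 1.53-fold higher with PQ than with NAC (0.61 ± 0.16, edgeR adjusted p = 0.0077), lost without PQ replicate 2 (0.055) and without NAC replicate 2 (0.063). PQ against control gave -0.09 ± 0.16 (edgeR adjusted p = 0.75), with a 95% interval of -0.41 to 0.24.

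The balance of the mRNAs of the 2 cleaving enzymes turned round. In FPKM, Chac1 was 0.253 and 0.265 times Chac2 with PQ, 0.168 and 0.226 times with NAC, and 1.26 and 1.53 times in control. Chac1 was thus the more abundant per length in both control libraries and the less abundant in all 4 treated ones.

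Oplah (Entrez 75475, chr15:76296603-76331181 of GRCm38) was the least abundant of the 10 and higher in all treated libraries. It had 3.43 and 4.66 CPM with PQ, 3.34 and 3.96 CPM with NAC and 1.45 and 2.32 CPM in control, from 33 and 49, 36 and 40, and 14 and 23 rounded counts. The 4 treated libraries lay above the control libraries, and PQ and NAC overlapped. Oplah rose with PQ 2.14-fold (1.10 ± 0.33, edgeR adjusted p = 0.028). That call was lost in DESeq2 (adjusted p = 0.11), on log2 FPKM in limma (0.051), and when control replicate 2 (0.19) or PQ replicate 2 (0.27) was left out. The NAC value against control was 0.94 ± 0.33 (edgeR adjusted p = 0.06) and PQ against NAC 0.16 ± 0.29 (0.73). Exosc4 and Smpd5 on the opposite strand share 6.6% and 5.1% of its exonic bases.

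Other genes of the pathway were described from lists, each beside the share of all genes called in that direction given above. Of 14 genes of cysteine and glutamate supply 13 were tested, and 8 fell with PQ against control (5 without PQ replicate 2). With NAC against control 4 fell (Slc3a2, Slc1a4, Slc1a5 and Cth) and 3 rose (Slc1a2, Slc1a3 and Glul). Fewer of these 3 were called when any 1 library was left out. Lower with PQ than with NAC were 6, and fewer without PQ replicate 2. The neutral amino acid transporter Slc1a4 had 55.6 and 64.1 CPM with PQ, 79 and 90.9 CPM with NAC and 129 and 163 CPM in control, and fell against control by 1.29 ± 0.12 with PQ and 0.78 ± 0.12 with NAC on the log2 scale (edgeR adjusted p = 2e-06 and 0.00012). Slc1a3, a glutamate transporter of glia and neural stem cells, fell with PQ (-0.48, edgeR adjusted p = 0.0017) and rose by 0.29 with NAC (0.037), a call that was lost in 5 of 6 fits without 1 library (0.055 to 0.25, all but that without control replicate 2). Ahcy, an enzyme that hydrolyses S-adenosylhomocysteine on the route from methionine to cysteine, fell with PQ (-0.59, edgeR adjusted p = 0.00036) and gave 0.16 with NAC (0.27). Cth, the lyase that releases cysteine from cystathionine, was chosen for mention after its values were seen. It had 1.04 and 1.67 CPM with PQ, 0.556 and 0.792 CPM with NAC and 2.53 and 8.00 CPM in control, with log2 fold changes of -1.95 and -2.94 against control (edgeR adjusted p = 0.007 and 0.00061). Control replicate 2 held the high value, and without it these were -0.90 (0.29) and -1.89 (0.027). The PQ call was also lost without PQ replicate 2 (0.11).

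Of 11 further genes of the gamma-glutamyl cycle 4 were tested, and the rest were at 0 to 0.38 CPM, among them Ggt1, the cell surface transferase that opens extracellular glutathione. Ggt7, a relative of Ggt1, fell with NAC against control (-0.96, edgeR adjusted p = 0.0017) and was higher with PQ than with NAC (0.89, edgeR adjusted p = 0.0019, and 0.061 without PQ replicate 2). Of 9 genes of export and mitochondrial uptake 7 were tested, and 2 fell with NAC against control, the efflux pump Abcg2 (-0.55, edgeR adjusted p = 0.00053) and the mitochondrial glutathione carrier Slc25a39 (-0.32, 0.039). The Slc25a39 call was lost without control replicate 2, NAC replicate 1 or either PQ library (adjusted p 0.052 to 0.32). Slc25a11, another mitochondrial carrier, was higher with PQ than with NAC (0.32, edgeR adjusted p = 0.034), a call lost without PQ replicate 2 or either NAC library (adjusted p 0.054 to 0.29), and so was Abcg2 (0.39, 0.0062, and 0.1 without PQ replicate 1).

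Among 7 other glutaredoxin and glutathione thioester genes, Esd, the S-formylglutathione hydrolase, had 161 and 171 CPM with PQ, 60.8 and 64.8 CPM with NAC and 104 and 107 CPM in control. Its 3 groups did not overlap, and it was 2.64-fold higher with PQ than with NAC (edgeR adjusted p = 1.2e-08), 0.66 higher with PQ and 0.75 lower with NAC than control on the log2 scale (0.00012 and 2.5e-05). Gsto1, an omega class transferase, and Glrx3 were also higher with PQ than with NAC (0.51 and 0.37, edgeR adjusted p = 0.0021 and 0.0073), Glrx3 with 0.081 without PQ replicate 1 or NAC replicate 2, and Glo1, glyoxalase 1, was lower (-0.31), though not without PQ replicate 1, PQ replicate 2 or NAC replicate 1. With PQ against control 2 of the 7 rose, Esd and Gsto1, and the Gsto1 call (0.34, edgeR adjusted p = 0.047) was lost without any 1 library (0.061 to 0.3).

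The 10 genes were set beside other known targets of NRF2 and ATF4. Of all genes, 9.07% were called higher and 8.8% lower with PQ against control, and 8.65% higher and 9.26% lower with NAC. In PQ against NAC 15.5% were called higher. Of 9 tested NRF2 targets outside the 10, 7 rose with PQ against control. The count was 4 when control replicate 2 or PQ replicate 2 was left out and 3 when PQ replicate 1 was. With NAC against control 4 fell (Hmox1, Srxn1, Ephx1 and G6pdx; 2 without NAC replicate 1) and 1 rose (Sqstm1). The median log2 fold change was 0.35 and -0.09, and 0.74 in PQ against NAC, where 7 of 9 were higher with PQ. Hmox1, heme oxygenase 1, had 117 and 143 CPM with PQ, 43.4 and 50.1 CPM with NAC and 61.8 and 66.3 CPM in control, the order of Gclc and Gclm with wider gaps. Srxn1, sulfiredoxin, and G6pdx, which supplies NADPH, were 2.28-fold and 1.81-fold higher with PQ than with NAC (edgeR adjusted p = 6e-07 and 1.8e-06). The mRNA of NRF2 itself, Nfe2l2, chosen for mention after its values were seen, was 0.32 higher with PQ than with NAC (edgeR adjusted p = 0.012, and 0.065 to 0.078 without any 1 PQ or NAC library).

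Of 9 tested ATF4 targets outside the 10, 6 fell with PQ against control and 1 rose (Cebpb, not called without control replicate 1 or PQ replicate 2), and 8 fell with NAC. The count that fell with PQ moved down or up with the library left out. The median log2 fold change was -0.56 with PQ, -1.35 with NAC and 0.79 in PQ against NAC, where 5 of 9 were higher with PQ (Asns, Sesn2, Ddit4, Vldlr and Nupr1). Asns, asparagine synthetase, had 92.5 and 103 CPM with PQ, 52.8 and 59.8 CPM with NAC and 192 and 317 CPM in control, the same order as Chac1. Mthfd2, a mitochondrial one-carbon enzyme, fell against control by 1.63 with PQ and 1.74 with NAC, and Ddit4, a stress-induced inhibitor of mTORC1, by 0.56 and 1.53 (edgeR adjusted p at most 0.0044), the PQ value of Ddit4 with 0.11 without PQ replicate 2. Atf4 mRNA had 221 and 227 CPM with PQ, 175 and 188 CPM with NAC and 335 and 492 CPM in control, and fell against control by 0.89 and 1.19 (edgeR adjusted p = 0.00015 and 4e-06). Of 10 factors that act on these genes, 3 fell with PQ (Atf4, Ddit3 and Trib3) and 4 with NAC (the same 3 and Atf3). All-gene shares called lower were 8.8% and 9.26%. Called higher were 2 factors with each agent and 2 in PQ against NAC, against 9.07%, 8.65% and 15.5% of all genes. The Ddit3 calls were both lost in edgeR's robust fit (adjusted p = 0.23 and 0.15), and that with PQ also in DESeq2 (0.13). Bach1 and Mafk rose with each, though neither did with PQ without PQ replicate 2 or with NAC without either NAC library, and 1 did in each comparison without control replicate 2. Nfe2l2 and Trib3 were higher with PQ than with NAC, a count of 2 that became 0 without any 1 PQ or NAC library and 4 without either control library. The second control library was the higher one for Chac1, Slc3a2, Cth, Asns, Trib3, Ddit3 and Atf4 alike.

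**Figure D4:**
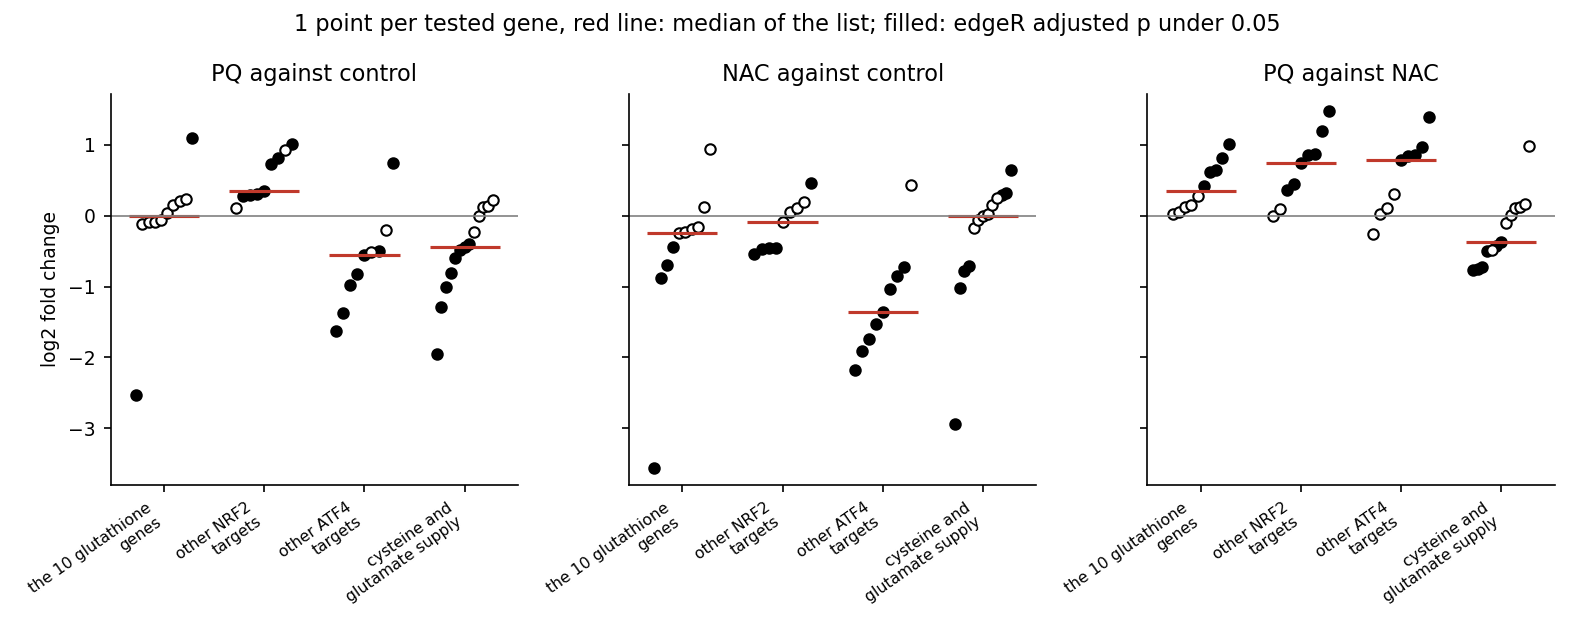
Log2 fold change (vertical axis) of each tested gene of 4 lists, the 10 glutathione genes, other NRF2 targets, other ATF4 targets and cysteine and glutamate supply, in the 3 comparisons, with red lines at list medians and filled points where the edgeR adjusted p was under 0.05. In PQ against control the medians of the NRF2 and ATF4 targets lie at 0.35 and -0.56, and that of the 10 glutathione genes at -0.01.

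Of 10766 named genes with at least 5 CPM on average, those most like Chac1 over the 6 libraries were Trib3, Bcat1 and Asns. Likeness was the root mean square difference between log2 CPM profiles, each centred on its own mean, and was 0.31, 0.52 and 0.60 for these 3. Trib3, the pseudokinase that restrains ATF4, had 13.7 and 15.4 CPM with PQ, 7.51 and 9.51 CPM with NAC and 39.9 and 82.2 CPM in control. Like Chac1 it was lowest with NAC and higher in control replicate 2 than in control replicate 1. The genes nearest to Gclm were Vps36, Mef2c and Arpc2 (0.038, 0.039 and 0.04), and those nearest to Slc7a11, which varied little, were Bcl6, Olfr613 and Ints11 (0.016, 0.029 and 0.032).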

How the data were processed

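Expected counts and FPKM values per gene were deposited, per the file headers, in 1 table for each of the 6 libraries. Per the submitters' processing notes, mm10, RSEM, Bowtie2 2.2.5 and HISAT2 2.0.4 were used, in roles not stated, and the strand setting is not given in the sources used here. The deposited expected counts are estimates, 20.9% to 21.4% of them not whole, and were rounded. A gene missing from a table was set to 0. Entrez identifiers were named from RefSeq's GRCm38.p6 table (17199 of 17254). The filterByExpr function, at a minimum count of 10 and a minimum total of 15, passed 12813 genes. These were scaled by TMM and fitted with edgeR 4.0.16 in R 4.3.3 to the 3 groups together (3 residual degrees of freedom), and p-values were adjusted over all genes. The standard error of a log2 fold change is its size over the square root of the F statistic, and intervals are approximate. The authors' FPKM was used for levels between genes and, as log2(FPKM + 1) and log2(FPKM + 0.1), in limma 3.58.1.

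The fit was tested on simulated data with known changes in a small set of genes. Counts were drawn from the fit's own estimates of level and spread. Of 1.5-fold changes it called 56.7% in PQ against control, 67.2% in NAC against control and 64.2% in PQ against NAC. For 2-fold changes these shares were 83.6%, 82.1% and 89.6%. False calls made up 6.43%, 4.6% and 5.08% of all calls. A gene that was not called may therefore still have changed. Far more genes were called in the real data than were changed in the simulation, so these shares may not carry over. The 10 genes and all lists were chosen with earlier results of these data known. Genes outside the 10 were chosen for description by a rule, up to 3 of each list with the smallest p among those called. Further genes of these lists were named outside that rule, mostly to say which genes a count held. Alternatives were other scalings, no filter, DESeq2 1.42.0, a robust fit, the 2 groups alone, a term for the runs of title numbers and leaving out each library. A fit without 1 library leaves 1 library in its group, which then adds nothing to the estimate of spread. Protein sequences are not used here, and 1 marker gene is not reported here. Figures were made with Python 3.11.15 and matplotlib 3.10.9.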

Additional observations from a re-analysis of the deposited data

How the results depend on the processing

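Over the 10 genes, 3 comparisons and 15 alternatives, 423 of 450 log2 fold changes kept their direction and their side of the threshold. Most of these were not called in the main fit, so that share says little about how stable the calls were. Of the called values, those of Chac1, Gclc and Abcc1 in NAC against control, of Chac1 in PQ against control and of Gclc and Abcc1 in PQ against NAC kept both under every alternative. The other calls among the 10 genes were each lost in some alternative. The count of the 10 genes called higher in PQ against control was 0 in DESeq2 and in limma on either FPKM scale and 0 to 1 when 1 library was left out, always Oplah. Called higher in NAC against control was 1 gene, again Oplah, with library size as the only scaling and with no filter, and 0 to 1 when 1 library was left out. Called higher in PQ against NAC were 3 to 5 when 1 library was left out. Over all genes, leaving out 1 library gave 829 to 2181 calls in PQ against control (2289 with all libraries), 1338 to 2157 in NAC against control (2294) and 2427 to 4442 in PQ against NAC (3926).

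Estimates near 0 changed sign when 1 library was left out, and the cause was not tested: in PQ against control Gss (-0.244 to 0.035), Chac2 (-0.311 to 0.173), Abcc1 (-0.155 to 0.044), Glrx (-0.007 to 0.093), Ggt7 (-0.322 to 0.132) and Slc25a11 (-0.015 to 0.222), in NAC against control Glrx3 (-0.184 to 0.012), and in PQ against NAC Gss (-0.091 to 0.184), Gsr (-0.046 to 0.106), Oplah (-0.085 to 0.350) and Slc3a2 (-0.096 to 0.131). Slc3a2 in PQ against NAC was also -0.001 with library size as the only scaling. Among the named genes outside the 10, Ddit3 in PQ against control was -1.03 with all libraries and -0.34 without control replicate 2 (edgeR adjusted p = 0.16), and its call was also lost without PQ replicate 2 (0.055) and in 4 other alternatives, the robust fit, DESeq2 and both limma fits (0.055 to 0.23). Its NAC call was lost in the robust fit (0.15). Calls lost in alternatives other than leaving out a library were also those of Gsto1 in PQ against control (in 4, adjusted p up to 0.12), of Slc25a39 (4, 0.11), Slc1a3 (2, 0.072), Srxn1 (2, 0.061) and Hmox1 (1, 0.052) in NAC against control, and of Trib3 (4, 0.32), Slc25a11 (4, 0.079) and Asns (1, 0.057) in PQ against NAC.

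The labels give the groups no shared replicate numbers. The titles number the libraries 8 to 13, and a fit with the runs 8 to 10 and 11 to 13 as a block, which the labels call neither batches nor pairs, changed no call among the 10 genes. Over all genes it called 944 higher and 898 lower in PQ against control, 906 and 995 in NAC against control and 1777 and 1708 in PQ against NAC. Deviations from the group mean within a run correlated at -0.11 to 0.11. Low counts limit Oplah, with 14 to 49 counts a library.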
